A study of Mus musculus with 146 samples.

Results

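Whole blood was compared with 3 brain regions (amygdala, hypothalamus, prefrontal cortex) within C57BL/6J mice of the air-exposed arm of a mouse drinking study. The libraries were chosen by their labels, as all 74 libraries of the Air group out of 146 in the series. They came from 19 Air mice (9 female, 10 male) of 37 mice, and comprised 19 blood, 18 amygdala, 18 hypothalamus and 19 prefrontal cortex libraries. Each mouse carried 1 number across its tissues, so blood was set against the brain regions within an animal. All 4 tissues were present in 17 mice, while female mouse 28 had no amygdala library and female mouse 38 no hypothalamus library here. The Air mice were injected with pyrazole (68.1 mg/kg, an inhibitor of alcohol dehydrogenase) in saline and sat in chambers delivering air, while the other arm received chronic intermittent ethanol (CIE) vapor. They were not alcohol-naive, because every mouse drank 15% ethanol by choice in 2 h sessions over a 4-week baseline and again for 5 days after each of 4 exposure cycles. Tissue was taken 1 week after a last 4-day exposure. No age was given in the labels, and no cells were sorted, so blood here is all cells of whole blood, and a brain library holds every cell of a micropunch.

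Blood is a mixture of cell classes with separate tasks. Red cells carry oxygen on hemoglobin, whose heme is made in mitochondria, and young red cells (reticulocytes) still hold RNA. Platelets are fragments of megakaryocytes that close wounds, neutrophils and monocytes engulf microbes, and B cells, T cells and NK cells carry adaptive and cytotoxic immunity. Brain tissue holds its own macrophages, the microglia, which share many transcripts with blood monocytes. In bulk tissue, fewer cells of a class and less RNA per cell cannot be told apart.

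The measurement was TagSeq, which reads near the 3′ end of each polyadenylated transcript, so that a gene's count was not divided by its length. Gene reads ran from 932127 to 1461395 per blood library (median 1192184) and from 1117393 to 3861281 per brain library. Levels below are counts per 1000000 gene reads scaled by TMM (a normalization that sets the bulk of genes level between libraries), written CPM. Blood RNA was isolated with a different kit, cleaned on beads, depleted of globin mRNA and submitted at 2000 ng against 300 ng for brain. Tissue and handling therefore cannot be told apart in any difference between blood and brain.

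Before the results, 3 properties of the libraries bear on the values. The first is that in CPM of library totals, Xist (the RNA of the inactive X chromosome, a female transcript) stood at 15.9 to 33.1 in male blood against 0 to 4.8 in male brain, which was 13.0% of the mean level of female blood (93.5 to 368). Ddx3y, carried on the Y chromosome, stood at 4.10 to 11.6 in female blood and 29.4 to 70.7 in male blood. In female brain it stood at 0 to 11.6, with the prefrontal cortex of mouse 28 (11.6) and of mouse 38 (4.84) within the range of female blood, and in male brain at 75.6 to 166. Every blood library thus held transcripts of the other sex. The next is that transcripts abundant in neurons were present in blood, described at the end. The last is that transcripts of blood cells were present in brain, and the levels of Alas2 there fell into separate sets. Alas2, the first enzyme of heme synthesis in red cells, was at 2.65 to 11.6 CPM of library totals in 14 brain libraries, all female, and at 129 to 381 in the other 41 (11 female, 30 male), with none between. Of the 14, 12 were the brain libraries of female mice 27, 30, 37 and 39, the only mice with fewer than 100 spike-in (ERCC control RNA) reads per 1000000 gene reads in all 3 brain libraries. Values from those 4 mice are given beside those of the leading genes and the larger lists, as a comparison added after the data were seen. Whether RNA passed between samples or libraries was not tested.

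**Figure D1:**
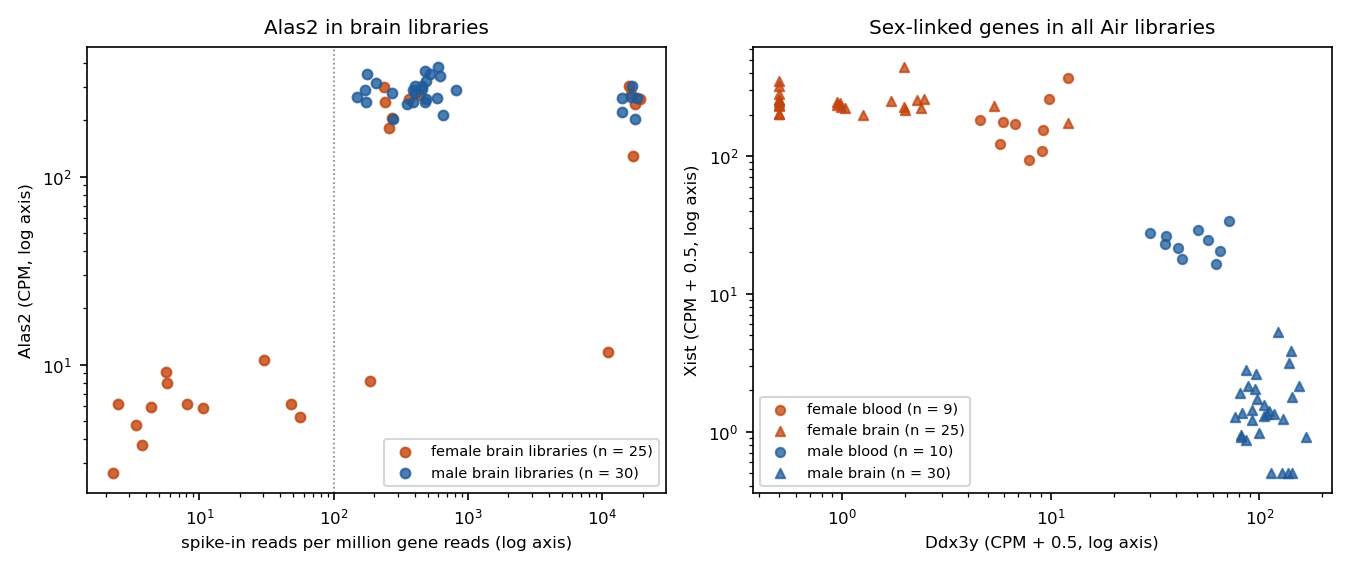
Left, Alas2 in CPM of library totals against spike-in reads per 1000000 gene reads in each of the 55 Air brain libraries, both on log axes, coloured by sex, with a dotted line at 100 spike-in reads per 1000000. Right, Xist against Ddx3y in every Air library on log axes (CPM + 0.5). The low Alas2 set (14 libraries, up to 11.6) lies apart from the rest (129 or more), and blood points of either sex sit between the sex-specific brain clusters, apart from 2 female brain libraries with Ddx3y at the level of female blood.

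Of 13735 genes tested, 3066 (22.3%) were higher in blood than in each of the 3 regions and 2929 (21.3%) were lower, at an adjusted p under 0.05 and a difference of at least 1 on the log2 scale in each contrast (edgeR quasi-likelihood test with mouse as a block, Benjamini-Hochberg adjustment). Of the 3066, 2749 are protein coding, 2854 had more in blood than in the brain mean of every mouse, and in 2389 no blood library overlapped any brain library. Such separation was seen in 2521 genes of all those tested (18.4%). The 3066 genes took 65.6 to 81.0% of the gene reads of a blood library (median 73.3) and 14.2 to 16.9% of those of a brain library. Their median difference was 2.71 (interquartile range 1.74 to 4.86) and the highest was 8.88. The count rests on the scaling: TMM factors were 0.407 to 0.794 in blood and 1.14 to 1.36 in brain, and with plain library totals every difference moved down by a median of 1.19, the median of all genes went from -0.14 to -1.33, and 1672 genes (12.2%) were higher and 7175 lower. With the neuron share of each blood library subtracted, 5357 were lower. All 1672 were among the 3066.

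The 4 mice with few spike-in reads bore on the size of the largest differences more than on which genes were called. Of the 3066 genes, 2881 were called again in those 4 mice alone, where 3194 genes (23.4%) were higher than all 3 regions. Among genes with at least 20 CPM in blood and more than the floor of 3 reads in the 12 brain libraries of the 4 mice, 42 had a difference of 8 or more in all 19 mice, and in the 4 mice these genes stood at a median of 11.5, with a median change of 3.08. For the 1769 genes under 4, the median change was 0.155. Over all 80 genes at 8 or more, the brain level was a median of 0.0661% of the blood level in the 4 mice and 0.876% in the other mice. In the 4 mice 37 of the 80 were at the floor, so the value of 0.0661% includes percents set by the floor. The differences of about 8 to 9 below are therefore values over all mice, and larger values hold in the 4.

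**Figure D2:**
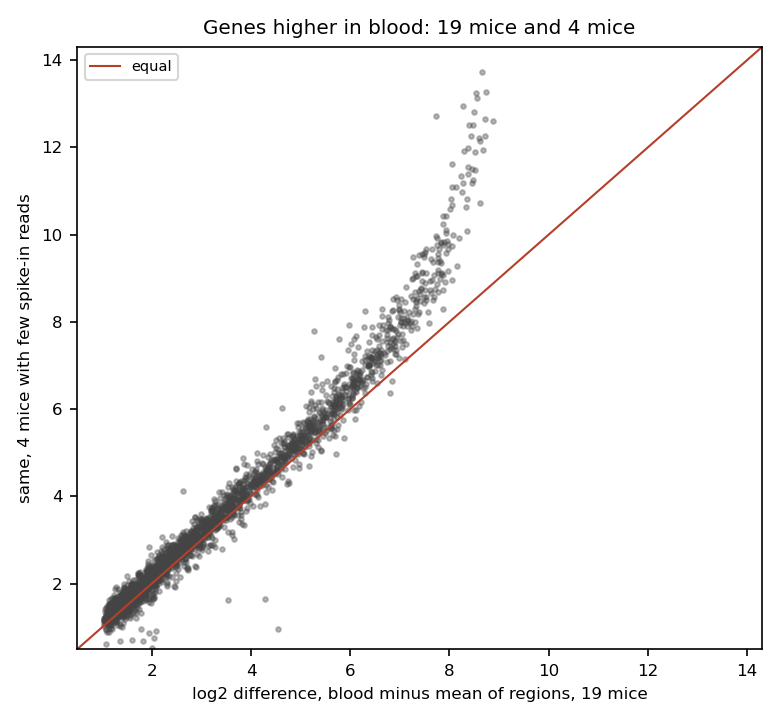
Each point is 1 of 2584 genes higher in blood, with the log2 difference between blood and the brain mean over all 19 mice on the x axis and in the 4 mice with few spike-in reads on the y axis; the line marks equal values. The points follow the line for small differences and turn upward where the 19-mouse value nears its ceiling of 8.88, reaching 13.7 in the 4 mice for genes at 8 or more.

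Lists of genes known from blood cell classes and functions were read against these shares. Over 23 such lists, 426 of 510 tested genes (83.5%) were higher in blood than in all 3 regions, beside 22.3% of all genes, with a median difference of 4.78. The other 2629 genes of the 3066 sit in none of the lists, and the rest are markers of brain or other tissues. The count filter ran by tissue, so a listed gene scarce in brain was tested only where its blood reads passed. For such a gene the call was close to fixed. Of 56 neutrophil genes 36 were tested, and of 38 NK and cytotoxic genes 22. The lists were also chosen with earlier results of these data known, so the shares describe tested members and do not test the lists.

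**Figure D3:**
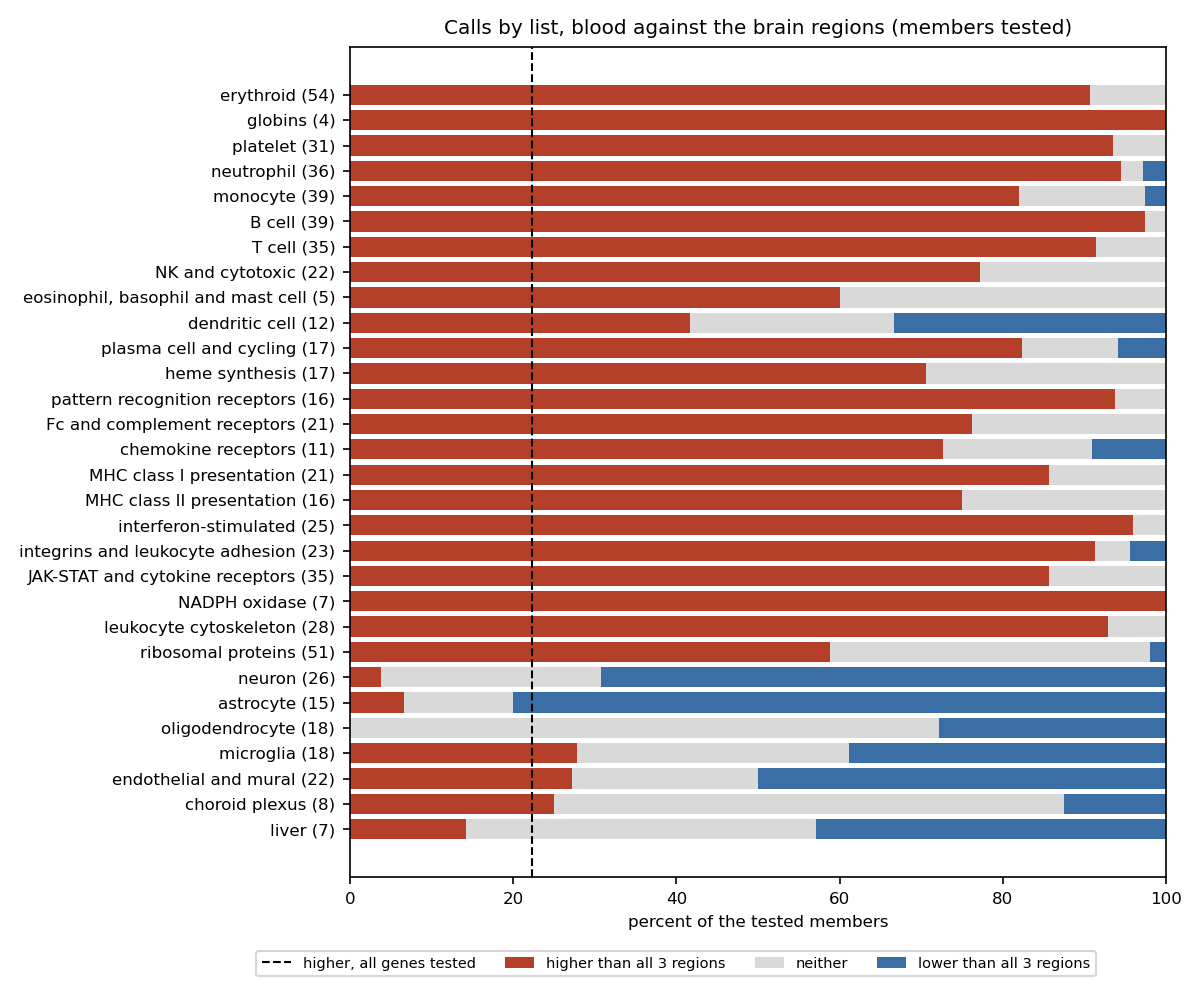
For each list with 4 or more tested genes, the bar gives the percent of its tested members that were higher in blood than in all 3 regions, lower than all 3, or neither, with the numbers of genes beside it; the dashed line marks 22.3%, the share among all genes. Lists of blood cells and immune functions lie at 41.7% or more higher, and lists of neurons, astrocytes and oligodendrocytes at 6.67% or less.

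Red cell transcripts were the largest group by level. Of 54 tested genes of the erythroid list, 49 were higher in blood, none was lower and the median difference was 6.41 (7.15 in the 4 mice). Summed, the list stood at 136800.0 to 504040.0 CPM in blood, 10.8 to 20.7% of the gene reads, and at no more than 5345 CPM in any brain library. Bpgm (ENSMUSG00000038871.5, chr6:34476207-34505613 in GRCm38), which makes the bisphosphoglycerate that lowers hemoglobin's hold on oxygen, ran from 15620.0 through a median of 34870.0 to 54750.0 CPM over the 19 blood libraries. In brain it reached 489.6 CPM at most, a difference of 7.5 ± 0.21 (SE) (9.55 in the 4 mice) with an edgeR adjusted p of 1.2e-40. Tent5c, a poly(A) polymerase, stood at 14090.0 to 51860.0 (median 32270.0) CPM in blood and Mkrn1, a ubiquitin ligase, at 15050.0 to 50460.0 (median 32370.0), with brain maxima of 341 and 332. No blood library of any of the 3 overlapped a brain library.

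Structural genes of the red cell membrane had among the largest differences. Epb42 (protein 4.2) stood at 254 to 2009 (median 839.6) CPM in blood and 8.01 at most in brain, a difference of 8.85 ± 0.16 (SE). Kel, a blood group glycoprotein, stood at 791 to 2809 (median 1804) CPM against 10.8, and Trim10, a protein of late red cell maturation, at 487 to 2427 (median 1605) against 12.2. The 12 brain libraries of the 4 mice held 1 read of Epb42, 3 of Kel and 4 of Trim10 in all. Epb41 (protein 4.1), also found in neurons, stood at 8396 to 30400.0 (median 18700.0) CPM in blood and reached 232 CPM in brain, more than the others did there, and its difference was 7.52 ± 0.17 (SE).

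Heme synthesis and iron handling followed, with 12 of 17 tested genes higher and none lower. Alas2 (ENSMUSG00000025270.13, chrX:150547375-150570638) stood at 12440.0 to 43310.0 (median 27120.0) CPM in blood, and its brain levels followed the sets above, 2.29 to 9.21 (median 5.05) CPM in the 4 mice and 6.93 to 302 (median 219.7) in the others. The difference was 8.48 ± 0.36 (SE) over all mice and 12.52 in the 4. Fech, which puts iron into the ring, stood at 9883 to 33690.0 (median 21740.0) CPM in blood and Slc25a37, the mitochondrial iron carrier, at 3804 to 14780.0 (median 10170.0). Enzymes between Alas2 and Fech had smaller differences, among them 3.61 for Urod, 2.38 for Cpox and 1.35 for Ppox, while Alad (0.56) and Uros (0.64) did not reach a difference of 1 in every region. Of the globins, whose mRNA was depleted before the libraries were made, 4 genes could be tested and all were higher, with a median of 7.77 (9.73 in the 4 mice). Hbb-bs, an adult beta globin, stood at 609 to 3061 (median 1727) CPM in blood and up to 199 in brain, a difference of 6.38 ± 0.22 (SE). Its levels measure what the depletion left, and Hba-a1 and Hba-a2, a pair of near-identical genes, had 1 and 0 reads over the Air libraries, which says nothing of alpha globin in blood.

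The promoters of the red cell genes were read for the letters AGATAA on either strand, which factors of the GATA family are known to bind. A RefSeq promoter (GRCm38.p6, 250 bases before to 50 after the start) was found for 33 of the 49 higher erythroid genes, and 12 (36.4%) held the letters, beside 3432 of 27025 promoters in all (12.7%). The counts were not tested, and a match is a description of letters, not a site in use. Promoters of 3 red cell genes are printed 5′ to 3′ on the gene's strand, because Alas2 and Isg20 are among the most abundant of the group and Tmcc2 holds the same letters; capitals mark the match, written TTATCT where it lies on the other strand. They lie at chrX:150547167-150547466 (plus strand), chr7:78913985-78914284 (plus) and chr1:132367899-132368198 (minus).
Alas2: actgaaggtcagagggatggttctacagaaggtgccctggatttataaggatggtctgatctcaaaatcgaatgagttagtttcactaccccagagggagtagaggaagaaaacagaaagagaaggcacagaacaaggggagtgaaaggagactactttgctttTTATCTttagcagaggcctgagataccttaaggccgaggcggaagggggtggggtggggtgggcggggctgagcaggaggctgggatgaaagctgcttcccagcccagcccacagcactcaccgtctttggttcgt
Isg20: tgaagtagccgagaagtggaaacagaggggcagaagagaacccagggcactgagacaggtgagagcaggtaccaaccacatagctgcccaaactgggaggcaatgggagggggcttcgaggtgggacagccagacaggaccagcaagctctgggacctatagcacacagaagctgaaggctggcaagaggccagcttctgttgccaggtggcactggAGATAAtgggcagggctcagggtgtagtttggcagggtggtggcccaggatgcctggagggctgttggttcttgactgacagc
Tmcc2: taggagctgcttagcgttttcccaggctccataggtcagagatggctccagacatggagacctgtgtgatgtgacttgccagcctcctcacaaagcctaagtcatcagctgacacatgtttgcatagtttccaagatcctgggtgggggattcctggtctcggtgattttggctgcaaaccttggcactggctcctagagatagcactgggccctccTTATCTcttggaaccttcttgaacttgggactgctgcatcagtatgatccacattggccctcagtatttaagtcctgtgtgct

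Platelet transcripts were the next group, with 29 of 31 tested genes higher, none lower and a median difference of 7.33 (8.18 in the 4 mice). Summed, they stood at 19809 to 54710.0 CPM in blood. Ppbp (pro-platelet basic protein, a chemokine of platelet granules, chr5:90768518-90770063) stood at 1171 to 4631 (median 3178) CPM in blood and at 0 to 19.6 (median 10.2) in amygdala, 0 to 19.5 (median 12.4) in hypothalamus and 0 to 20.3 (median 10.5) in prefrontal cortex. The difference was 8.54 ± 0.22 (SE), and 13.24 in the 4 mice, whose 12 brain libraries held 11 reads. Gng11, a G protein gamma subunit, stood at 3256 to 9676 (median 6834) CPM in blood and Cd9, a tetraspanin, at 2911 to 8067 (median 5737), with brain maxima of 82.7 and 86.4. Genes of platelet receptors had differences near that of Ppbp over all mice. Gp6, the collagen receptor, differed by 8.73 ± 0.13 (SE) from 201 to 717 (median 503) CPM in blood, Clec1b, the podoplanin receptor, by 8.62 ± 0.14 (SE) from 428 to 1452 (median 952), and Mpig6b, an inhibitory receptor, by 8.58 ± 0.13 (SE) from 186 to 818 (median 482). Gp6 and Mpig6b had no read in the 12 brain libraries of the 4 mice, so that against a floor of 3 reads over those libraries they were at least 2161-fold and 1902-fold higher in blood there. Nrgn (2.14) and Serpine2 (-0.28), both also expressed in brain, did not pass in every region.

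Of the neutrophil list, 34 of 36 tested genes were higher and the median difference was 6.14 (7.24 in the 4 mice). S100a8 and S100a9 form calprotectin, the main cytosolic protein of neutrophils. S100a8 (chr3:90668978-90670035) stood at 633 to 4983 (median 1308) CPM in blood, 0 to 12.8 (median 4.99) in amygdala, 0 to 11.3 (median 4.41) in hypothalamus and 0 to 133 (median 12.4) in prefrontal cortex, with a difference of 7.75 ± 0.21 (SE) and of 9.91 in the 4 mice. S100a9 stood at 1028 to 9428 (median 2389) CPM in blood, with a difference of 8.27 ± 0.24 (SE), and its highest brain library, a prefrontal cortex one, had 196. Lyz2 (lysozyme, also of monocytes) stood at 1709 to 5419 (median 2306) CPM, against up to 69.1 in brain. Granule genes made early in the marrow were scarce. Elane, Mpo, Ctsg, Camp and Ngp had 47, 69, 15, 128 and 340 reads over all Air libraries and were not tested, and Prtn3, at 1.52 CPM in blood, was lower (-1.37). The letters GAGGAAGT (a PU.1 site), on either strand, were in 2 of 26 neutrophil promoters found (7.69%) and 3.69% of all. The S100a8 promoter (chr3:90668821-90669120, plus strand) is shown as the holder of the match among the abundant neutrophil genes, with ACTTCCTC the other strand.
S100a8: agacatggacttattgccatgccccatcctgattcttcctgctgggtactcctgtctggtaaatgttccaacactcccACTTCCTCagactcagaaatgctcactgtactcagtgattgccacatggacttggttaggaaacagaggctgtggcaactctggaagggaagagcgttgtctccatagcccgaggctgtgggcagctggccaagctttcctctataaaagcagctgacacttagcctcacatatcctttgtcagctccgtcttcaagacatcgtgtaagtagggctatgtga

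Monocyte genes were higher in 32 of 39 tested cases and lower in 1, with a median difference of 4.76 (5.11 in the 4 mice) and a lowest of -1.33. Cd36, a scavenger receptor that platelets and young red cells also carry, stood at 374 to 2553 (median 946) CPM in blood and up to 11.1 in brain, a difference of 7.81 ± 0.13 (SE). Adgre5 (CD97, an adhesion receptor) stood at 372 to 820.1 (median 500.1) CPM and differed by 5.62 ± 0.07 (SE), and Itgal (the alpha chain of LFA-1) stood at 292 to 498 (median 342) and differed by 7.94 ± 0.11 (SE). Members that microglia or other brain cells also express fell short, among them Cx3cr1 (0.32), Cst3 (-0.61, 448 to 1000.0 (median 686) CPM in blood and 963 to 1371 (median 1200.0) in amygdala) and Vcan (-0.12). The functions carried by these cells were higher too. Of the pattern recognition receptors, 15 of 16 were higher, led in level by Clec4d (113 to 750.3 (median 183) CPM) and Clec7a, the beta-glucan receptor (49.5 to 392 (median 86.4)), and Tlr3 was at -1.16. Of the Fc and complement receptors, 16 of 21 were higher, with Fcer1g, the shared signalling chain, at 378 to 896 (median 580.5) CPM and Itgb2, the CD18 chain of complement receptor 3, at 346 to 723 (median 482). All 7 genes of the NADPH oxidase, which makes superoxide, were higher. Cybb, its catalytic subunit, stood at 137 to 642 (median 313) CPM and differed by 7.30 ± 0.14 (SE), Rac2, a small GTPase of blood cells, by 7.27 ± 0.11 (SE), and Rac1, present in most cells, by 2.21 ± 0.06 (SE).

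**Figure D4:**
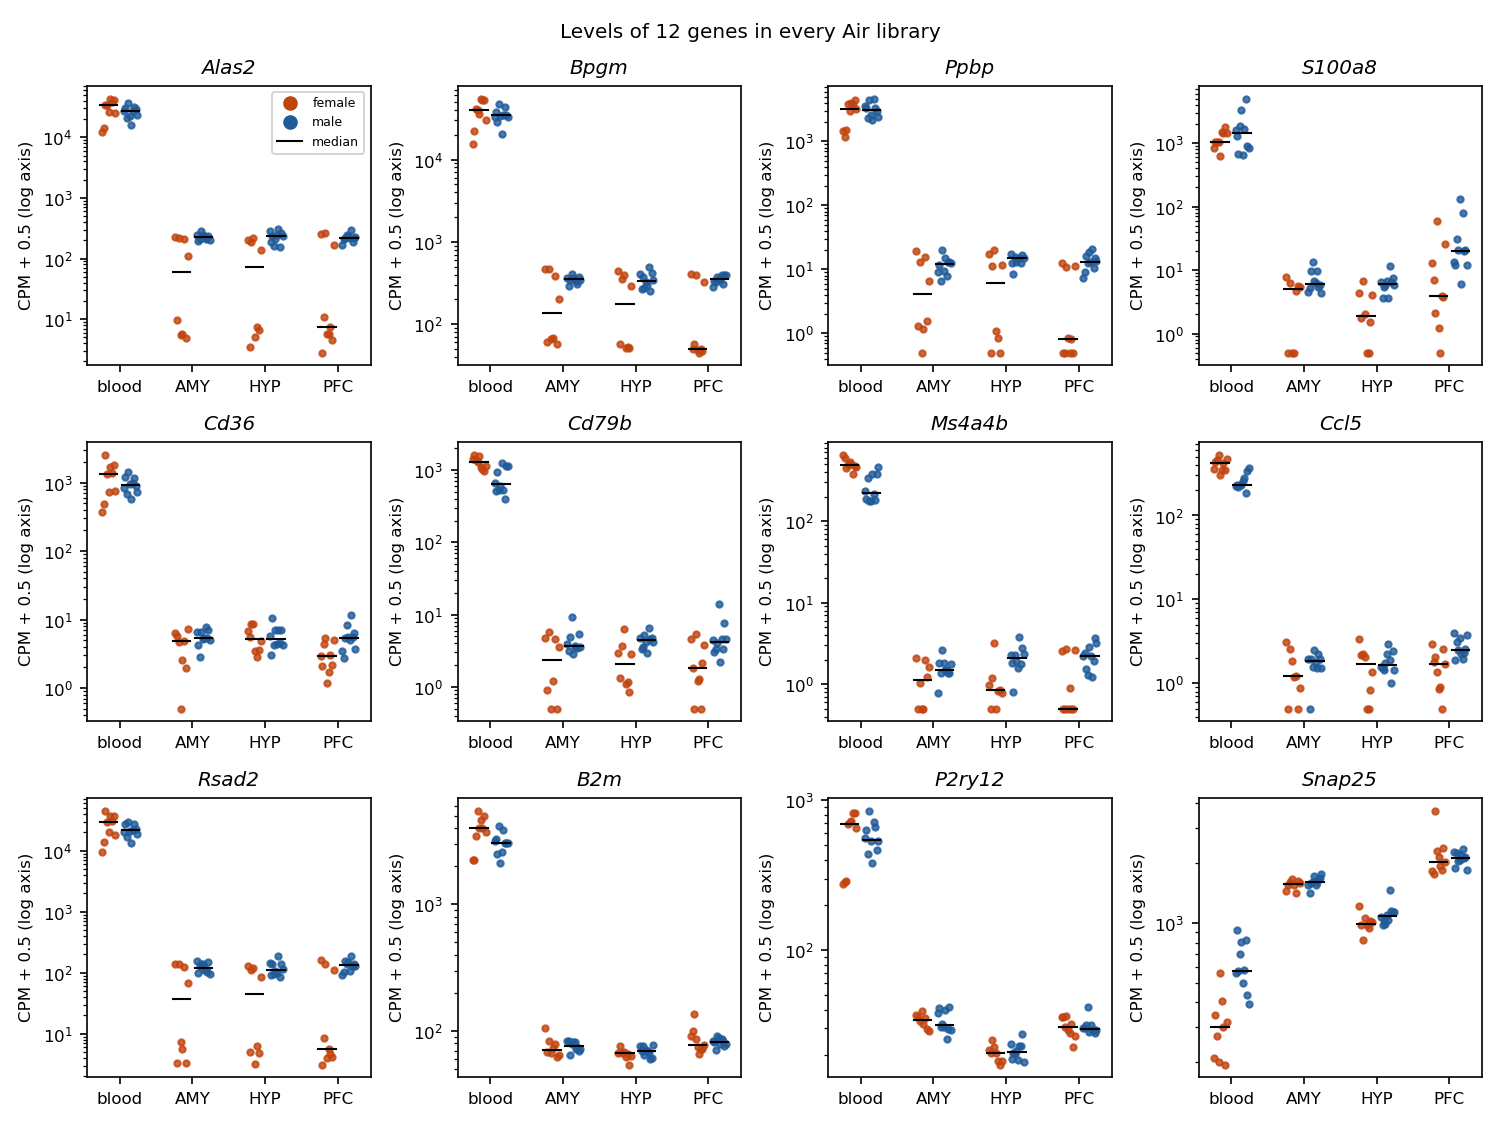
Levels of 12 genes in every Air library (CPM + 0.5, log axis), by tissue and coloured by sex, with bars at the median of each sex. Blood libraries lie above all brain libraries for each gene shown other than Snap25, a neuronal gene that lies lower in blood at 194 to 924 CPM. Red cell and platelet genes have a lower tail of female brain libraries.

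Of the B cell list, 38 of 39 tested genes were higher, with a median difference of 7.30 (8.71 in the 4 mice). Cd74, the invariant chain of MHC class II, stood at 1640.0 to 4946 (median 3809) CPM in blood and up to 49.7 in brain. Ighm, the IgM heavy chain, stood at 719 to 2229 (median 1688) CPM and differed by 6.31 ± 0.13 (SE). Cd79b, which signals from the B cell receptor (chr11:106311341-106314762), stood at 397 to 1625 (median 1089) CPM in blood, 0 to 8.90 (median 3.04) in amygdala, 0.34 to 6.10 (median 3.13) in hypothalamus and 0 to 13.7 (median 2.89) in prefrontal cortex, a difference of 8.26 ± 0.17 (SE) and of 10.98 in the 4 mice. Fcmr, the IgM Fc receptor, stood at 109 to 328 (median 264) CPM and Cxcr5, the receptor that leads B cells to follicles, at 49.2 to 201 (median 142), with brain maxima of 3.17 and 1.92. Bcl11a, which neurons also express, was the member that fell short, because its difference from prefrontal cortex was 0.66. Igkc, the kappa chain, was listed at 0 reads in every library, as were Itgam, Il2rg, Irf8 and Myd88. The reason for these zeros was not tested, and nothing is read from them. The PU.1 letters were in 3 of 27 B cell promoters (11.1%), Cd37 among them, a tetraspanin of lymphocytes (chr7:45238790-45239089, minus strand).
Cd37: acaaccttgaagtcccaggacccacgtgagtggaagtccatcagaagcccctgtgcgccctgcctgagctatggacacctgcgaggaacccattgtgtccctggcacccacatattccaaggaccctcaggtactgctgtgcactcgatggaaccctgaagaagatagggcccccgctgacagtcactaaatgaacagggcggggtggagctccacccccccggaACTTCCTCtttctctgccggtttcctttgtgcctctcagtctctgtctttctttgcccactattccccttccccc

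T cell genes were higher in 32 of 35 tested cases, with a median difference of 6.07 (6.55 in the 4 mice). Ms4a4b, a membrane protein of T cells, stood at 177 to 654 (median 383) CPM in blood and up to 3.29 in brain, a difference of 8.24 ± 0.14 (SE). Il7r, the interleukin 7 receptor of naive and memory T cells, stood at 83.4 to 358 (median 197) CPM and differed by 7.53 ± 0.11 (SE). Satb1, a chromatin organizer that neurons also express, stood at 142 to 475 (median 243) CPM in blood and 50.2 to 131 (median 109) in prefrontal cortex and differed by 2.09 ± 0.09 (SE). The receptor complex itself was low in level but apart from brain, with Cd3e at 57.7 CPM and a difference of 8.15, Cd3d at 66.8 and 7.76, and Cd8b1 at 69.6 and 7.97. Thy1, a marker of mouse T cells that is abundant on neurons, stood at 266 to 463 (median 350.4) CPM in blood and 689 to 850.5 (median 786) in amygdala and differed by -0.95 ± 0.07 (SE). Of the NK and cytotoxic list, 17 of 22 were higher. Ccl5, a chemokine of cytotoxic cells, stood at 186 to 528 (median 337) CPM and differed by 7.83 ± 0.11 (SE), and Gzma (granzyme A) stood at 61.2 to 183 (median 106) CPM and up to 1.30 in brain, with no read in the 12 brain libraries of the 4 mice, whose blood was at least 695-fold higher (floor of 3 reads over those libraries). The letters TGTGGTT (a RUNX site) were in 4 of 21 T cell promoters (19%) beside 6.09% of all, and the promoter of Il7r (chr15:9529827-9530126, minus strand) is shown with its match. Letters known from one lineage were found in promoters of others too. CACGTG, the E-box, was also in 4 of 21 T cell promoters (19%, beside 8.09% of all), AGATAA in 6 of 26 neutrophil promoters (23.1%, beside 12.7%) and GAGGAAGT in 2 of 21 T cell promoters (9.52%), and none of these shares was tested.
Il7r: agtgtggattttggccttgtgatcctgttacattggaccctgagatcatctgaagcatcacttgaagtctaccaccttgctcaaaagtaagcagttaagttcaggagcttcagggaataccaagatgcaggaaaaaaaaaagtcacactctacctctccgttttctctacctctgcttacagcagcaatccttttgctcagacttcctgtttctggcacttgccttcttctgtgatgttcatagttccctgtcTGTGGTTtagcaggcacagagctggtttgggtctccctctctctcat

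The smaller classes gave fewer measurable genes. For eosinophils, basophils and mast cells 18 of 23 genes had too few reads to test, and Csf2rb (60.2 to 289 (median 89.3) CPM), Gata2 (33.5 to 114 (median 59.4)) and Hgf (3.30 to 23.5 (median 8.79)) were the 3 of 5 that were higher. Dendritic cell genes were higher in 5 of 12 tested cases and lower in 4, with Wdfy4 at 78.4 to 309 (median 203) CPM and Ly6d, also a B cell gene, at 96.9 to 298 (median 188). Cadm1, an adhesion molecule of dendritic cells and of synapses, stood at 36.5 to 168 (median 95.0) CPM in blood and 224 to 444.2 (median 325) in amygdala and was lower by -1.93 ± 0.12 (SE). Of the plasma cell and cycling genes, 14 of 17 were higher and 1 was lower, and the lowest difference was -1.72. Nusap1, a spindle protein, stood at 503 to 2045 (median 1284) CPM, Ube2c, a ubiquitin-conjugating enzyme of mitosis, at 337 to 1750.0 (median 1026) and Mcm3, a replication helicase subunit, at 88.2 to 274 (median 201). Mouse 26 had the lowest summed level and mouse 37 the highest in both this list and the erythroid list.

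Transcription factors that mark the lineages were read from the same lists, chosen after their values were seen. Gata1, the factor of red cells and megakaryocytes, had a mean of 129 CPM in blood and 0.459 in brain, a difference of 7.96. Nfe2 and Tal1 of the same lineages differed by 8.50 and 6.37. Pax5, which fixes B cell identity, differed by 8.08 at 390.2 CPM, Spib by 8.19 and Pou2af1 by 7.85. Ebf1 (3.75) and Bach2 (4.07) also have brain transcripts, with brain means of 25.0 and 28.3 CPM. Of T and NK cell factors, Tcf7 differed by 5.41, Lef1 by 3.90 and Tbx21 by 5.31. Eomes (3.91) was not called, since prefrontal cortex, where it stood nearer to blood, differed by 0.98. Among factors of myeloid cells, Irf5 differed by 4.48, Cebpb by 2.91 and Klf4 by 2.30.

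Interferon-stimulated genes were higher in 24 of 25 tested cases. Over all 19 mice they held the largest difference of all genes at 20 CPM or more in blood, that of Rsad2. In the 4 mice differences of other genes were larger, up to 13.7. Rsad2 (viperin, an antiviral enzyme, ENSMUSG00000020641.16, chr12:26442746-26456452) stood at 9550.0 to 45490.0 (median 22270.0) CPM in blood, 2.80 to 158 (median 113) in amygdala, 2.73 to 191 (median 102) in hypothalamus and 2.62 to 192 (median 109) in prefrontal cortex. The difference was 8.88 ± 0.33 (SE) over all mice and 12.61 in the 4. Isg20, an exonuclease also counted in the erythroid list, stood at 4773 to 20130.0 (median 12660.0) CPM and Isg15, a ubiquitin-like protein, at 406 to 3532 (median 946). The list was uneven, because Stat2 (2.14), Irf9 (2.38) and Ifit2 (3.52) had smaller differences than Rsad2, Isg15 (8.61) and Oas3 (8.45), and Ifit3 (1.38) was not called. In the list, the summed level of mouse 28, 72886 CPM, was the highest and that of mouse 26, 16890.0, the lowest. The sum, with a median of 38391 CPM, is mostly Rsad2 and Isg20, so it is no measure of the list as a whole. Mouse 26 was also the lowest in the erythroid list.

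Antigen presentation was higher for both classes. Of MHC class I genes, 18 of 21 were higher, with B2m, the light chain, at 2110.0 to 5476 (median 3253) CPM in blood and up to 135 in brain, a difference of 5.50 ± 0.07 (SE). The heavy chains H2-D1 (893 to 1655 (median 1147) CPM) and H2-K1 (529 to 1221 (median 909.7)) differed by 4.98 ± 0.07 (SE) and 4.74 ± 0.07 (SE), and may share reads, being near-identical in parts. Of MHC class II genes, 12 of 16 were higher. H2-Aa stood at 558 to 1840.0 (median 1330.0) CPM and differed by 7.5 ± 0.17 (SE), H2-Eb1 at 287 to 1043 (median 776) and 7.27 ± 0.14 (SE), and Ciita, their master regulator, by 7.75. The general factors of the same promoters fell short, with Rfx5 at 0.17 and Rfxap at -0.67. Among the functions of movement, 21 of 23 integrin and adhesion genes were higher and 1 was lower, with a lowest difference of -1.81. The higher ones were led by the platelet beta 3 chain Itgb3 (1442 to 3684 (median 2833) CPM), Itga6 (1015 to 3024 (median 2203)) and Cd47 (1150.0 to 1815 (median 1312)). Cd47, a signal against engulfment on most cells, differed by 2.27 ± 0.05 (SE). Of the leukocyte cytoskeleton genes, 26 of 28 were higher, with Actb at 8499 to 17030.0 (median 13120.0) CPM and a difference of 3.47 ± 0.05 (SE), Arhgap45 at 855 to 1848 (median 1381) and 6.91 ± 0.10 (SE), and Cfl1 (cofilin) at 1186 to 2066 (median 1689) and 1.45 ± 0.05 (SE). Chemokine receptors were higher in 8 of 11 cases, among them Ccr2 of inflammatory monocytes (29.2 to 622 (median 73.2) CPM) and Cxcr2 of neutrophils (52.1 to 411 (median 82.3)), while Ackr3 was lower (-1.89). Of JAK-STAT and cytokine receptor genes, 30 of 35 were higher, with Csf3r, the receptor for granulocyte growth factor, at 163 to 1611 (median 356) CPM and a difference of 6.92 ± 0.12 (SE), and Jak1 at 2.19 ± 0.05 (SE).

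Ribosomal protein genes differed less and rested on the scaling. Of 51 tested, 30 were higher (58.8%), 1 was lower and the median difference was 1.36, and with library totals 5 were higher. Rps14 stood at 1176 to 2038 (median 1422) CPM in blood and 251 to 325 (median 291) in amygdala, Rps15 at 877 to 1498 (median 1197) and 348 to 444.5 (median 406), and Rps3 at 838 to 1572 (median 1183) and 219 to 298 (median 267). Summed over the list, blood stood at 10253 to 12066 CPM in females and 8276 to 10106 in males, with no overlap between the sexes on this scale. As a percent of gene reads the sexes overlapped, at 0.474 to 0.807% in females and 0.385 to 0.629% in males. The most abundant RNAs of the higher group were not messenger RNAs, with the mitochondrial ribosomal RNA mt-Rnr2 at 41310.0 to 130000.0 (median 88060.0) CPM in blood and 21560.0 to 36380.0 (median 25710.0) in amygdala, and Gm42418, a gene model within a ribosomal RNA repeat, at 16030.0 to 62080.0 (median 37310.0) and 6597 to 9951 (median 7736). Both differed less, by 1.84 ± 0.08 (SE) and 2.24 ± 0.08 (SE).

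The classes varied among mice to different degrees. The coefficient of variation of the summed blood level over the 19 mice was lowest for the cytoskeleton list (12.4%) and was 49.4% for neutrophils, 31.6% for the erythroid list, 28.9% for platelets and 35.5% for B cells. The neutrophil value rests on mouse 13, without which it was 26.1%, below the 32.5% of the erythroid list, 29.8% of platelets and 32.9% of B cells. The order also rests on the scale, since as a percent of gene reads the coefficient was 15.8% for the erythroid list, 17.8% for platelets, 41.9% for neutrophils (27.1% without mouse 13) and 49.96% for B cells (both comparisons were added after the data were seen). In TMM-scaled CPM, male mouse 13 had the highest summed level of 9 lists, those of neutrophils, monocytes, eosinophils and basophils, pattern recognition, Fc and complement, chemokine receptors, JAK-STAT, NADPH oxidase and cytoskeleton, with 36498 CPM of neutrophil genes against 8278 to 21847 in the other males. As a percent of gene reads it was highest in 3 lists. Female mice 26, 27 and 28 had 19809 to 20411 CPM of platelet genes, and the other 6 females had 38921 to 54710. Of the males, mice 8, 11, 14 and 15 had 11556 to 15799 CPM of B cell genes and the other 6 had 5987 to 8386, without a value between, and the same 4 had the 4 highest male levels of T cell genes (3223 to 3910 against 2149 to 2706) and of MHC class II genes. No label separates these mice, and the cause was not tested.

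**Figure D5:**
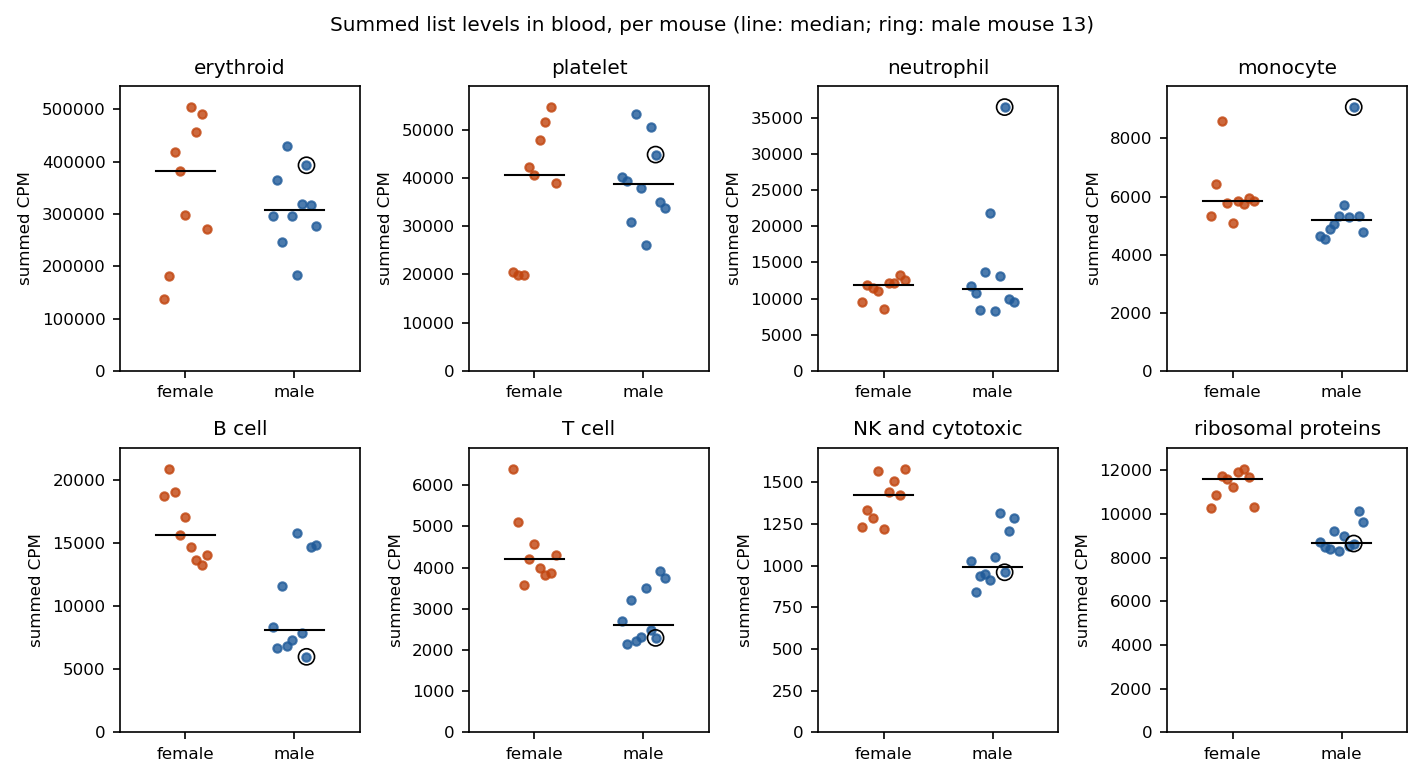
Summed CPM of 8 lists in the 19 Air blood libraries on linear axes from 0, by sex, with bars at the median and the male mouse 13 ringed. Neutrophil genes of mouse 13 (36498) lie above all others, B cell genes fall into separate male sets, and ribosomal protein genes of females (10253 or more) lie above those of males (10106 or less) on this TMM scale, while their percents of gene reads overlap.

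Most genes of the neuron and astrocyte lists were lower in blood, and Snap25 had reads in every blood library. Of 26 tested neuron genes, 18 were lower than all 3 regions and 1 was higher, and the differences of most lay close together, with a list median of -1.92. Summed, the neuron list stood at 11155 to 35360.0 CPM in blood and 9360.0 to 21118 in brain, so that the sum did not go the way of the median. Snap25, a synaptic fusion protein, stood at 194 to 924 (median 438) CPM in blood and 1759 to 3671 (median 2115) in prefrontal cortex, a difference of -1.74 ± 0.11 (SE). Syt1, the calcium sensor of release, differed by -1.99 ± 0.12 (SE) and Syp, a synaptic vesicle protein, by -1.75 ± 0.10 (SE). Astrocyte genes were lower in 12 of 15 cases, with Slc1a2, the glutamate transporter, at 198 to 794 (median 413) CPM in blood and 1685 to 2396 (median 2041) in amygdala. Clu, which platelets also carry, was higher. Oligodendrocyte genes were lower in 5 of 18, a share near the 21.3% of all genes, and prefrontal cortex was the region nearest to blood. Mbp, of myelin, stood at 322 to 896 (median 415) CPM in prefrontal cortex beside 267 to 813 (median 478) in blood and 938 to 2678 (median 1642) in amygdala. Of the lists for other tissues, 1 of 7 tested liver genes (Hp, also a neutrophil gene) and none of 2 muscle genes was higher, and 13 of 22 liver genes had no read in blood libraries. Among 8 tested choroid plexus genes, 2 were higher (25%, near the 22.3% of all genes) and 1 was lower. Summed, that list stood at 734 to 2305 CPM in blood, beside medians of 137 to 203 in the 3 regions and up to 5030 in amygdala. The median difference of its tested members was -0.58 and the highest 7.93, so here too the sum did not go the way of the median.

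The level of the neuron genes in blood, as a median percent of the mouse's own brain level in CPM of library totals, was 4.07 to 10.1% in females (mean 6.87 ± 1.99, SD, n = 9) and 11.3 to 20.2% in males (15.8 ± 2.76, SD, n = 10). The sexes did not overlap, and the difference was -8.89 percentage points (two-sided exact permutation test, p = 2.165e-05, the smallest it can give). The same measure differed by -10.4 points for astrocyte genes and -10.6 points for oligodendrocyte genes (exact permutation p = 2.165e-05 and 0.0003031). With the markers summed in place of the median ratio the difference was -2.60 points (exact permutation p = 0.553). That sum rests on the 1 member called higher in blood (log2 difference between blood and brain 5.87), and without it the sex difference was -8.41 points (exact permutation p = 2.165e-05, added after the data were seen). In the sums of all members the neuron genes of blood stood at 51.2 to 88.1% of brain in females and 64.2 to 87.9% in males. The size of the share also rests on the scale, since in TMM-scaled CPM, the scale of the levels above, it was 11.5 to 22.7% in females and 25.6 to 52.7% in males, a difference of -21.7 points (exact permutation p = 2.165e-05; this scale was added after the data were seen). The difference in CPM of library totals was -8.78 points without the 4 mice (exact permutation p = 0.000666).

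Of 18 tested microglial genes, 7 were lower in blood than in all 3 regions, beside 21.3% of all genes, and these included Tmem119 and Sall1, markers of microglia against blood macrophages, and the complement genes C1qa, C1qb and C1qc. C1qb stood at 5.00 to 41.0 (median 21.9) CPM in blood and 56.7 to 124 (median 88.2) in amygdala, a difference of -1.83 ± 0.11 (SE). Another 5 were higher, a share near the 22.3% of all genes, and with library totals 2 were. P2ry12, an ADP receptor of microglia and of platelets, stood at 277 to 849.8 (median 629) CPM in blood against 25.0 to 41.2 (median 32.3) in amygdala, 16.7 to 27.1 (median 20.1) in hypothalamus and 22.1 to 41.1 (median 29.7) in prefrontal cortex, a difference of 4.37 ± 0.08 (SE). Tyrobp, a signalling adaptor of myeloid and NK cells, differed by 3.77 ± 0.08 (SE), Csf1r, the receptor for macrophage growth factor, by 1.43 ± 0.07 (SE), and Bin1 by 1.18 ± 0.07 (SE). Bin1 turned to -0.07 with library totals. Of endothelial and mural genes, 11 of 22 were lower, beside 21.3% of all genes, and 6 were higher, near the 22.3% of all genes, with Bsg, a red cell and barrier glycoprotein, at 657 to 2229 (median 1571) CPM in blood.

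Differences between blood and brain were compared between the sexes by the product of sex and tissue in the same edgeR fit. Of all genes, 4581 (33.4%) passed at an adjusted p under 0.05, 1418 (10.3%) with a larger difference in females and 3163 (23.0%) with a smaller one. Larger and smaller refer here to the signed value, blood minus brain. For a gene lower in blood, a smaller value in females is thus a wider gap. In the neuron list, with a median difference of -1.92, 23 genes passed and 1 of them had a larger value in females. Of the 3066 genes higher in blood, 962 passed (31.4%, no more than of all genes). By direction, 898 of the 3066 had a larger difference in females, a greater share than the 10.3% of all genes. Shares of all genes include genes lower in blood, for which the sign reads the other way. The 4 mice with few spike-in reads are all female, and the neuron share differs by sex, so both move with this contrast. With the neuron share subtracted, 1675 genes passed, 375 of them among those higher in blood. In the 13 complete mice without those 4 (3 female, 10 male) 2326 genes passed (17.2%), 482 of them (3.56%) larger in females. Of the 3066 genes 317 passed there (10.3%), with 270 passing both times in the same direction. A larger difference in females was found in 247 of the 3066, again a greater share than the 3.56% of all genes. For Alas2 the female minus male difference was 3.43 ± 0.58 (SE) over all mice (edgeR adjusted p = 3.8e-06) and 0.03 ± 0.24 in the 13. Ms4a4b was at 1.95 over all mice and 1.03 in the 13 (edgeR adjusted p = 4.6e-06 and 0.032), and H2-Eb1 at 1.64 and 0.96 (1.5e-06 and 0.029). Cd79b went from 1.79 to 0.83 (edgeR adjusted p = 9.5e-06 and 0.097). In the 13 mice, 9 of 35 T cell genes and 5 of 39 B cell genes had a larger difference in females and none a smaller one. Of 51 ribosomal protein genes, 11 had a larger one and 1 a smaller one. A larger one was found in 3.56% of all genes and in 247 of the 3066 higher in blood. Most tested members of these lists are among the 3066, and the 13 mice hold 3 females. Of 22 NK and cytotoxic genes none passed in either direction, beside 17.2% of all genes. Their median female minus male difference was 0.91 over all mice and 0.57 in the 13. For the 3066 genes these medians were 0.27 and 0.11, so the lack of NK calls does not show equal sexes. Of the neutrophil list 6 genes passed, 1 of them with a larger difference in females, and of the erythroid list 4 passed, none with a larger one. Over all mice a larger difference in females had been found in 24 T cell, 33 B cell, 17 ribosomal protein, 6 NK and cytotoxic, 5 neutrophil and 25 erythroid genes. Whether lists differ in this was not tested.

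Other than Xist, the genes of smallest p in that contrast were moderate in size. Vars, the valine tRNA ligase, stood at 117 to 155 (median 140.4) CPM in female blood and 58.0 to 119 (median 77.0) in male blood, against a brain maximum of 43.3, and its difference was larger in females by 0.82 ± 0.10 (edgeR adjusted p = 2.2e-09) and by 0.74 in the 13 mice (edgeR adjusted p = 1.8e-04). Sesn1, a stress-induced regulator of growth signalling, stood at 142 to 307 (median 203) CPM in female and 102 to 182 (median 117) in male blood and was larger by 0.88 and 0.96. Hnrnpf, a splicing factor, was larger by 0.72 and 0.67. Gm8130 and Gm4332, gene models at chr16:23050282-23050851 and chr3:119709516-119709861, were larger by 0.62 and 0.62 over all mice and by 0.50 and 0.45 in the 13. For Vars, Sesn1 and Hnrnpf the lowest female and the highest male blood libraries overlapped.

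The same fit on the 18 mice of the CIE arm called 2991 genes (21.8%) higher than all 3 regions, 2838 of them among the 3066. The arms share no library. For Alas2 the difference was 9.68 in CIE mice, for Ppbp 8.88, for S100a8 7.65, for Cd79b 8.55 and for Ccl5 6.56, beside 8.48, 8.54, 7.75, 8.26 and 7.83 in Air mice. Whether the arms differ was not tested here. Genes at the edge of the 2-fold threshold show what a call means at its weakest. Just inside lay Mid1 (1.06, at 1.65 to 21.2 (median 6.11) CPM in blood), Eif3f (1.03, 130.5 to 236 (median 186)) and Trip12 (1.03, 198 to 335 (median 220.0)), and just outside in 1 region lay Rab5b (1.02), Sap18b (1.04) and Tnfrsf25 (2.08).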

How the data were processed

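The deposited files hold whole-number read counts per gene, 1 file per library. Per the labels, the authors sequenced 100-base TagSeq reads, and their processing notes name Bowtie2, SAMtools and HTSeq, the GRCm38/mm10 build and limma 3.42.2, without HTSeq settings; strand use is not given in the sources used here. A median of 28.4 to 34.0% of reads per tissue were counted as summary rows (no feature, ambiguous or low mapping quality), and they were left out with 92 ERCC rows. No column of per-sample values was left unmapped (0). Of 55385 gene identifiers, 54487 matched GENCODE vM21 with version and 657 without it.

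The main test was edgeR 4.0.16 (R 4.3.3): TMM, filterByExpr with a minimum count of 10, mouse as a block, tissue as the factor, and 3 contrasts of blood against a region plus 1 against their mean. A gene was called at a Benjamini-Hochberg adjusted p under 0.05 and a log2 difference of at least 1 in all 3. Values printed are the lowest, median and highest library, and differences carry their standard error. The neuron share of a blood library is the median, over the neuron list, of its level as a percent of the brain level in CPM of library totals; female and male mice were compared on it by exact permutation (two-sided). On simulated counts, 100% of genes changed 3-fold or 8-fold in blood against all 3 regions were called over 13481 genes. The simulation gave all tissues the same mean profile, with 200 genes changed, up and down alike. It therefore did not meet the shift between blood and brain on which the scaling bears, and it cannot show how far the calls rest on TMM. Library pairs of a group differed by more than sampling noise (lowest chi-square per degree of freedom 1.41), so every library was counted once.

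Tissues share a number because they share an animal, so the block is part of the main fit. The correlation of deviations between blood and a region of the same mouse had a median of 0.012 over 55 pairs (range -0.11 to 0.098), and between regions 0.083.

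Named genes were, per blood or function list, the 3 higher members of highest blood level; the 15 higher genes of largest difference at 20 CPM or more; the 10 of highest level; for other tissues' lists the 3 of highest brain level, and microglial genes higher in blood; the 5 blood class members at 20 CPM or more, not called higher, of lowest difference; the 6 higher genes of smallest sex-by-tissue p; 3 on each side of the threshold; and Xist and Ddx3y. Some genes are not reported here. The gene lists, members and tests were chosen with earlier results of these data known. Alternatives were library totals, no count filter, other fold thresholds, DESeq2 1.42.0, limma 3.58.1 (voom), complete mice, each sex alone, subtraction of the neuron share, no block, and each mouse left out; the CIE mice, the 4 mice, the 13 mice, TMM-scaled neuron shares, the marker sum without its higher member, list levels as percents of gene reads and their spread without mouse 13 were added after the data were seen.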

Additional observations from a re-analysis of the deposited data

Results flagged for a closer look

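Blood levels of each list and named gene were screened within each sex for a mouse far from the others, on the log2(CPM + 1) scale. Of 288 series, 24 had such a mouse, and chance alone gives about 1 in 20. Of the 24, 10 were mouse 13, a male, always the highest. In it the monocyte list stood at 9077 CPM, the Fc and complement receptors at 3573, the chemokine receptors at 1784, the JAK-STAT and cytokine receptors at 7460 and the NADPH oxidase at 3711. Single genes of the same mouse were Lyz2 at 5419, Adgre5 at 820.1, Mctp2 at 122.1, Irak4 at 120.2 and Ccr2, the receptor of inflammatory monocytes, at 622.3. In female mouse 28 the monocyte list stood at 8608 CPM.

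Male mouse 11 was lowest for the red cell genes Kel (966.2 CPM), Hbq1a (64.06) and Mir451a (24.15; Mir451b is annotated on the other strand there), for Mcm3 (88.21) and for the muscle and interneuron gene Pvalb (1.05). Among females, S100a9 was low in mouse 30 (1028 CPM), Lyz2 in mouse 26 (1709), Fcmr in mouse 39 (146.3), Tnfrsf25 in mouse 37 (0) and Sap18b in mouse 27 (14.11), and Enpp2 was high in mouse 38 (57.51). Among males, Slc2a1 was low in mouse 14 (32.73) and Sap18b in mouse 10 (13.61).

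The blood to brain difference differed by sex in 962 of the 3066 genes higher in blood (31.4%, beside 33.4% of all genes), by the product of sex and tissue (edgeR, adjusted p under 0.05), and in 317 in the 13 mice. As a signed value (blood minus brain) it was larger in females in 898 of the 3066. That is a greater share than the 10.3% of all genes, which include genes lower in blood. Among the named ones it was larger in females by 0.82 on the log2 scale for Vars, 0.88 for Sesn1, 0.72 for Hnrnpf, 0.62 for Gm8130 and 0.62 for Gm4332, with adjusted p of 2.2e-09, 2.6e-08, 9.5e-09, 3.4e-09 and 2.2e-08. Outside the gene counts, spike-in reads reached 1497 per 1000000 gene reads in blood, where the lowest library had 15.1, and 12 brain libraries had 11010 or more.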

How the results depend on the processing

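With library totals in place of TMM, 1672 genes were higher and 7175 lower than all 3 regions, 1871 were higher and 8057 lower than the mean of the regions, and 6 named genes turned negative: Bin1 (-0.065), Mid1 (-0.11), Eif3f (-0.17), Trip12 (-0.19), Rab5b (-0.18) and Sap18b (-0.16). Without a fold threshold 4993 were higher and 5331 lower than all 3, and at 4-fold 1831 and 172. Without the count filter 5644 were higher than the mean. Subtracting each mouse's neuron share of the brain profile gave 5357 lower genes, and 1675 sex-by-tissue genes with 375 among the higher ones. In the 13 mice these were 2326 and 317. The female minus male neuron share was -2.60 points with the markers summed (exact permutation p = 0.553) and -8.41 with the 1 member higher in blood left out of the sum, against -8.89 with their median ratio. The fit with no replicate block gave 3069 higher and 2932 lower genes than all 3 regions and 3485 and 4028 against the mean. DESeq2, voom, complete mice, each sex alone, the CIE mice and the 4 mice kept the counts against all 3 regions within 1.5 times, and the sex-by-tissue counts stayed so under DESeq2 and complete mice. The cause was not tested for any of these shifts. Leaving out 1 mouse at a time gave 2932 to 3096 higher and 2867 to 3176 lower genes. Depth limits scarce genes: blood libraries held about 1192184 reads in the median, and 0 reads in a library allows a level of up to 3 reads, counting error only.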
